A study of Mus musculus with 11 samples.

Results

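The 10 genes described here encode the 5 subunits of the transcription factor NF-kappaB (Nfkb1, Nfkb2, Rel, Rela and Relb) and 5 proteins that hold it in check or steer it (Nfkbia, Nfkbib, Nfkbie, Bcl3 and Tnfaip3). They were taken by symbol from a table of 37224 gene rows, each name stood in 1 row, and all 10 were among the 13833 genes with a combined count of at least 100. The values came from mouse T cell acute lymphoblastic leukaemias (T-ALL) on a C57/BL6 background, made by giving cKit-positive blood progenitors a retrovirus with an activated intracellular Notch1 (Notch1-IC) and injecting them into recipient mice. The knockout group (Utx-/Y, 5 samples) lacked Utx, the X-linked histone demethylase listed as Kdm6a, and the wild-type group (Utx+/+ or Utx+/Y, 6 samples) kept it. Both groups carried Notch1-IC, and leukaemia cells were taken from bone marrow or spleen. Knockout samples numbered 2 from marrow and 3 from spleen, wild-type samples 2 and 4. Repeat runs made up 1 of the marrow samples in either genotype and 1 of the wild-type spleen samples. The genotypes thus differ in their mix of tissues and runs, which pooled counts cannot tell apart from genotype. The table holds pooled counts, 1 value per gene and genotype, so the spread between animals is unknown, none of the differences below was checked in replicates, and a high count may come from many tumours or from few. The comparison addresses how loss of Utx goes with gene expression in these leukaemias.

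NF-kappaB works as pairs of subunits. Rela, Rel and Relb carry a transactivation domain, whereas Nfkb1 and Nfkb2 are made as long precursors that are trimmed to the DNA-binding proteins p50 and p52. The IkB proteins encoded by Nfkbia, Nfkbib and Nfkbie keep the pairs in the cytoplasm until the IkB kinase marks them for destruction, and the alternative arm instead trims the Nfkb2 precursor to free pairs of p52 and Relb. Bcl3 is an IkB relative that sits in the nucleus on p50 or p52, and Tnfaip3 (A20) is a ubiquitin-editing enzyme that shuts the signal off. In T cell leukaemia driven by Notch1, NF-kappaB activity is known as a pathway downstream of Notch1.

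Several of these genes are known targets of NF-kappaB itself, so the DNA ahead of their start sites is shown for the members with the largest ratios in either direction that the sequence table holds. The RefSeq table (GRCm38.p6) held 11 windows for 8 of the 10 genes, each from 250 bases before to 50 bases after a start site. Each line below gives the 250 bases before the first listed start, read 5′ to 3′ on the strand of the gene, and capitals mark matches to the kappaB-like pattern GGGNNNTTCC on either strand, which includes every match to the stricter GGGNNTTTCC.
Bcl3: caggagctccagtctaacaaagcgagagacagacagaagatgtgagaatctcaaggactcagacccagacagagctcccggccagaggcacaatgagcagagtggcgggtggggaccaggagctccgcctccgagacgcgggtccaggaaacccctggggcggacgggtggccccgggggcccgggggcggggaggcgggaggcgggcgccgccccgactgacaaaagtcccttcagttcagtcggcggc
Nfkb2: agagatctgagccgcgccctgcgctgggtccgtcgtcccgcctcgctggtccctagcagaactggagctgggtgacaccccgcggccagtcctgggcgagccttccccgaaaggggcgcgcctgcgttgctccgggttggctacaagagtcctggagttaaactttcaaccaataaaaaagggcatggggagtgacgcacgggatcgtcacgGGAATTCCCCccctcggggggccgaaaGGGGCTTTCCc
Tnfaip3: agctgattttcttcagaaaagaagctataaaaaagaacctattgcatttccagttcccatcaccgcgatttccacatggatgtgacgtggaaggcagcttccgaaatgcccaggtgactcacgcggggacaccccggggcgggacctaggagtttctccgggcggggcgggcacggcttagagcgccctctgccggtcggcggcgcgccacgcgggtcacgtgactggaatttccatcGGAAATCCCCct
Nfkbia: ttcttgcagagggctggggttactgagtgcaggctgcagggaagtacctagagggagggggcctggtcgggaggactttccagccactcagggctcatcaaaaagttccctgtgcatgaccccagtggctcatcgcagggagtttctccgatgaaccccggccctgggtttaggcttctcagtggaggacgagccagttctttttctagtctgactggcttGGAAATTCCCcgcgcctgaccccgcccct
The windows lie at chr7:19822756-19823005 (minus strand), chr19:46304487-46304736 (plus strand), chr10:19015411-19015660 (minus strand) and chr12:55492648-55492897 (minus strand). The stretch ahead of Nfkb2 held 2 matches, those ahead of Tnfaip3 and Nfkbia held 1 each, and that ahead of Bcl3 held none. Over whole windows of 300 bases, the stricter pattern was in 6 of the 11 windows, from 4 genes (Nfkb2, Rel, Nfkbia and Tnfaip3), and in 1.63% of 32851 windows in the table. The looser pattern was in 8 of the 11 windows, from 5 genes with Nfkbie added, and in 5.56% of all windows. The 3 windows of Nfkb2 are not separate counts, as the second and the third overlap and share 1 match, GGGACTTTCC. A match is a description of the letters and does not show that a factor binds there.

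The pools held 106445530 knockout and 108015222 wild-type counts, and levels are counts scaled to these totals (CPM). Intervals are exact 95% Clopper-Pearson intervals on the log2 ratio of knockout over wild-type, and every ratio below is on this log2 scale unless called a fold. They cover counting error only, and their half-width for the 10 genes ran from 0.033 to 0.24. Kdm6a, the targeted gene, stood at 10.5 CPM in knockout and 58.3 CPM in wild-type tumours, over the whole gene. Xist had 75 against 21976 counts and the Y-linked Ddx3y 6959 against 1123, so genotype and sex of the donors cannot be told apart. None of the 10 genes is on a sex chromosome. T cell markers were abundant in both pools, with 14 genes summing to 4116 and 4614 CPM, and Cd3e stood at 435.7 and 445.9 CPM. All 12 macrophage and monocyte markers were higher in the knockout pool and summed to 299.6 against 93.6 CPM. The 8 erythroid markers summed to 21080 against 10467 CPM.

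Of the 10 genes only Bcl3 was called higher in the knockout pool and none was called lower; a call needs a combined count of at least 100, a difference of at least 2-fold and an interval without 0. Across all 13833 genes, 11.2% were called higher and 5.36% lower, so 1 of 10 is close to the background. The median log2 ratio was 0.17 over the 10 genes and -0.07 over all genes, and the 10 genes summed to 426.8 CPM in knockout and 425.8 CPM in wild-type tumours. In CPM, which is not divided by exon length, the summed level was thus nearly the same in both pools, while the share of single genes in it was not. Genes with many counts, such as Nfkb1 and Nfkbia, weigh most in this sum. It also moves with exon length and with the scaling between pools.

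**Figure D1:**
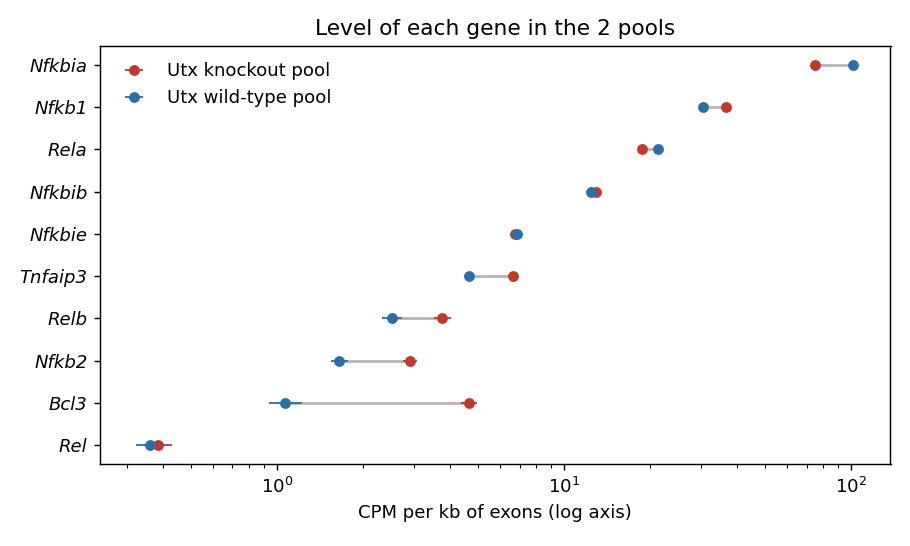
Level of each gene in CPM per kb of exons (log axis) in the Utx knockout pool (red) and the wild-type pool (blue), with 1 pool per genotype and bars for the 95% counting interval. Nfkbia is highest in both pools and Rel lowest, and Bcl3 has the widest gap, from 1.07 in the wild-type to 4.68 in the knockout pool.

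Nfkb1, the precursor of p50, had the most counts of the subunits. It had 16052 knockout and 13635 wild-type counts (150.8 and 126.2 CPM). The log2 ratio was 0.26 (95% interval 0.22 to 0.29). Rela, the activating partner of p50 in the classical pair, went the other way by a small amount. Its 5422 knockout and 6243 wild-type counts (50.9 and 57.8 CPM) gave a ratio of -0.18 (-0.24 to -0.13). The ratios of Nfkb1 and Rela differed by 0.44 on the log2 scale (0.38 to 0.50), a difference that no scaling between the pools can alter.

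Nfkb2 and Relb, which form the pair of the alternative arm, had the largest positive ratios of the subunits. Nfkb2 had 1307 knockout and 753 wild-type counts (12.3 and 6.97 CPM), and its ratio was 0.82 (0.69 to 0.95). Relb had 887 and 601 counts (8.33 and 5.56 CPM), and its ratio was 0.58 (0.43 to 0.73). Both were higher in the knockout pool and both stayed under the 2-fold minimum. With a minimum of 1.5-fold Nfkb2 passed at 1.76-fold and Relb, at 1.497-fold, lay just under it. That setting called 18.9% of all genes higher and 14.7% lower. The ratio of Nfkb2 lay above that of Nfkb1 by 0.56 (0.43 to 0.69) and above that of Rela by 1.00 (0.86 to 1.14). Nfkb2 overlaps Psd on the opposite strand, which had 264 and 269 counts, and the sources used here do not say whether counting kept the strands apart.

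Rel, the subunit known from activated lymphocytes, was low in both pools. It had 305 knockout and 292 wild-type counts (2.87 and 2.70 CPM). Its log2 ratio of 0.08 (-0.15 to 0.32) has an interval with 0, and the counts do not resolve a difference smaller than that interval.

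The make-up of the 5 subunit transcripts within each pool does not depend on the scaling between pools. Per kb of exons, Nfkb1 made up 58.6% of the 5 in knockout and 54.3% in wild-type tumours. Rela made up 30.1% and 37.7%. Relb was at 6.04% and 4.46%, Nfkb2 at 4.66% and 2.93%, and Rel at 0.62% and 0.64%. The knockout pool thus held a smaller share of Rela and larger shares of Nfkb1, Nfkb2 and Relb. As shares of raw counts, for which an exact binomial interval can be given, Rela was at 22.6% (22.1 to 23.2) and 29.0% (28.4 to 29.6), and Nfkb2 at 5.45% (5.17 to 5.75) and 3.50% (3.26 to 3.75). The order of Nfkb1 and Rela rests on the exon length used: with the exons of all annotated transcripts, which for Nfkb1 are 12061 bases in place of 4124, Rela led with 48.4% and 57.7% over Nfkb1 with 36.5% and 32.1%.

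**Figure D2:**
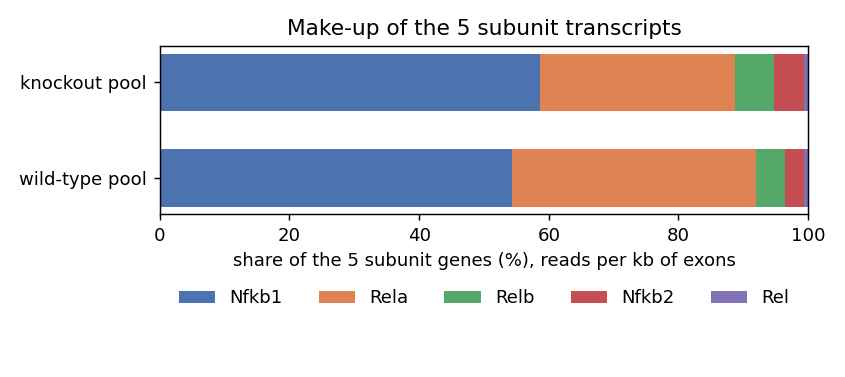
Share of each subunit gene in the summed reads per kb of exons of the 5 subunit genes, in %, for the knockout and the wild-type pool (1 bar per pool). The Rela segment is 37.7% in the wild-type and 30.1% in the knockout pool, and the Nfkb2 and Relb segments are wider in the knockout pool.

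Bcl3 differed most. Its gene (ENSMUSG00000053175) lies on chromosome 7, from 19808462 to 19822770 on the minus strand (GRCm38, GENCODE M21). It had 922 knockout and 214 wild-type counts (8.66 and 1.98 CPM). The log2 ratio was 2.13 (1.91 to 2.35), a 4.36-fold difference, and ranked 488 from the highest among the 13833 genes. The ratio of Bcl3 lay above that of each of the other 9 genes, by 1.31 (1.06 to 1.56) for Nfkb2, the nearest, and by 2.56 (2.34 to 2.78) for Nfkbia, the farthest. Bcl3 is also expressed in myeloid cells, and the 12 macrophage and monocyte markers, none at 0 in either pool, summed to 3.20-fold more in the knockout pool; their part in the ratio of Bcl3 was not tested. In RNA from a mixture of cells, more cells of a type and more RNA per cell cannot be told apart.

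Of the IkB genes that hold NF-kappaB in the cytoplasm, Nfkbia (IkB alpha) was lower in the knockout pool and the other two were at like levels. Nfkbia had 12613 knockout and 17280 wild-type counts (118.5 and 160.0 CPM), and its ratio was -0.43 (-0.47 to -0.40). It was the lowest ratio of the 10 genes and stayed under the 2-fold minimum. Nfkbib (IkB beta) had 2930 and 2856 counts (27.5 and 26.4 CPM), with a ratio of 0.06 (-0.02 to 0.13). Nfkbie (IkB epsilon) had 1756 and 1804 counts (16.5 and 16.7 CPM), with a ratio of -0.02 (-0.11 to 0.08) whose sign turned under other scalings, with a range of -0.02 to 0.07. Nfkbib overlaps Sirt2 on the opposite strand, which had 5394 and 5168 counts, so its reads cannot be told apart from those of Sirt2 if strand was ignored. Summed per kb of exons, the 3 IkB genes stood at 1.52 times the 5 subunits in knockout and 2.14 times in wild-type tumours. Nfkbia made up most of the IkB sum, at 75.1 and 101.4 CPM per kb. Nfkbib stood at 12.9 and 12.4 and Nfkbie at 6.77 and 6.86. The IkB ratio rests on the lengths used, at 0.72 and 1.02 from raw counts and 2.67 and 3.59 with the exons of all transcripts. It was lower in the knockout pool each time, with the same lengths used for both pools.

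Tnfaip3 went the other way from Nfkbia, although both are brakes that NF-kappaB is known to induce. It had 3242 knockout and 2313 wild-type counts (30.5 and 21.4 CPM), and its ratio was 0.51 (0.43 to 0.59). The ratio of Tnfaip3 lay above that of Nfkbia by 0.94 on the log2 scale (0.86 to 1.03). Both genes have a match to the stricter kappaB-like pattern in the stretches printed above; whether these matches bear on the ratios was not tested.

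**Figure D3:**
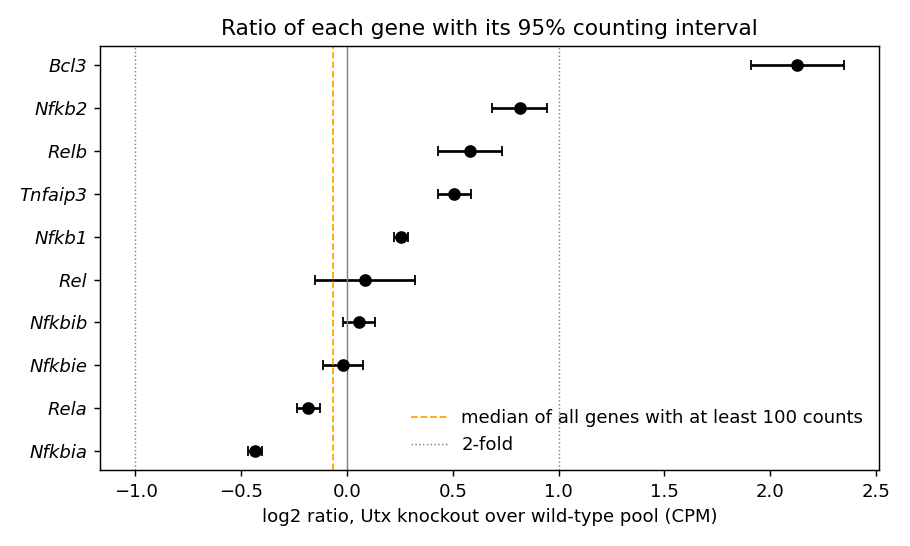
The log2 ratio of knockout over wild-type CPM for each of the 10 genes, with the exact 95% counting interval, lines at 2-fold (dotted) and the median of all genes with at least 100 counts (dashed, -0.07). Bcl3 at 2.13 is alone beyond 2-fold, Nfkb2, Relb and Tnfaip3 lie between 0.51 and 0.82, and Nfkbia is lowest at -0.43.

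Of the 45 pairs of genes, 40 had a difference in log2 ratio whose 95% interval (normal approximation on the log scale, counting error only) did not hold 0, and 5 had an interval with 0. At such counts small differences pass, and pairs of other genes were not counted, so nothing is read from this number about the family. The 5 pairs were Rel with Nfkb1, Nfkbib and Nfkbie, Relb with Tnfaip3, and Nfkbib with Nfkbie. In the authors' deposited table of DEGseq results, 5 of the 10 genes were higher (Nfkb1, Nfkb2, Relb, Bcl3 and Tnfaip3) and 2 lower (Rela and Nfkbia) at a Benjamini-Hochberg q under 0.05 with no fold minimum. That test called 82.7% of all genes with at least 100 counts, 36.6% higher and 46.2% lower, and it compares 2 pools of reads, not animals. The Benjamini-Hochberg q-values in the authors' deposited table were 0.548 for Rel, 0.167 for Nfkbib and 0.763 for Nfkbie. The Storey q-values there were 0.148, 0.045 and 0.206, so that Nfkbib passes 0.05 by that column.

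The order of levels per kb of protein-coding exons was nearly the same in both pools. Nfkbia was highest, at 75.1 CPM per kb in knockout and 101.4 in wild-type tumours. Nfkb1 followed at 36.6 and 30.6, Rela at 18.8 and 21.3, Nfkbib at 12.9 and 12.4 and Nfkbie at 6.77 and 6.86. Tnfaip3 was sixth in both pools at 6.63 and 4.66, and in the knockout pool it did not differ from Nfkbie beyond counting error (log2 difference 0.03, -0.05 to 0.12). Below these the order changed with Bcl3, which stood ahead of Relb and Nfkb2 in the knockout pool at 4.68, 3.77 and 2.91 and behind them in the wild-type pool at 1.07, 2.52 and 1.65. Rel was lowest at 0.38 and 0.36. Every other pair of neighbours in the order differed beyond counting error in its pool. With the exons of all transcripts, chosen after seeing the lengths, Nfkb1 came after Rela and Nfkbib, at 12.5 and 10.5 CPM per kb. In the knockout pool Nfkbib stood only just ahead of Nfkb1, at 12.7, and no interval was computed for this order. Relb came after Nfkb2, at 2.14 and 1.43. Nfkbia stayed first and Rel last. Bcl3 again stood ahead of Nfkb2 and Relb in the knockout pool and behind them in the wild-type pool.

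Genes that carry the signal from receptors to NF-kappaB showed no call. Of 31 kinase and adaptor genes, all with at least 100 counts, none was called higher or lower at 2-fold, beside 16.6% of all genes called either way, and the median log2 ratio was -0.10. With no fold minimum, 27 of the 31 passed a q of 0.05 in the authors' deposited table, 11 higher and 16 lower, beside 82.7% of all genes (36.6% higher and 46.2% lower), so this count is about the background. The highest ratios were those of Ikbke, an IkB kinase relative (12.8 against 7.21 CPM, log2 ratio 0.83, 0.70 to 0.96), and Map3k14 (NIK), the kinase that starts the alternative arm (343 against 207 counts, 0.75, 0.50 to 1.01). The lowest were those of Traf6, a ubiquitin ligase of the Toll-like and interleukin 1 receptor pathways (81.9 against 141.9 CPM, -0.79, -0.83 to -0.75), and Tab3, which links ubiquitin chains to the kinase Tak1 (41.8 against 59.2 CPM, -0.50, -0.56 to -0.45). Of the core IkB kinase, Chuk was at 0.02, Ikbkb at -0.42 and Ikbkg at 0.15 on the log2 ratio scale. Tab3, Ikbkg and Irak1 are X-linked.

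None of 15 further brakes and nuclear IkB genes was called, beside 16.6% of all genes, and their median was -0.11. Without a fold minimum all 15 passed a q of 0.05 in the authors' deposited table, 6 higher and 9 lower, beside 82.7% of all genes. Nfkbid, a nuclear IkB protein like Bcl3, was highest at 263 against 177 counts (log2 ratio 0.59, 0.31 to 0.88), followed by the repressor gene Nkrf at 0.41, which is X-linked. Nkiras1, a Ras-like protein that binds IkB, was lowest at 41.8 against 70.8 CPM (-0.76, -0.82 to -0.71), and the A20 partner Tnip1 was at -0.51. The large ratio of Bcl3 was thus not seen in the other nuclear IkB genes of the list, Nfkbid and Nfkbiz (0.23).

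Receptors and ligands that feed the pathway held 9 of the genes called higher. Of 21 listed genes 18 had at least 100 counts, and of these 9 were higher, 1 lower and 8 neither, with a median of 1.00 against -0.07 over all genes; 11.2% of all genes were higher. Among the receptors, Tnfrsf1b (TNF receptor 2) stood at 45.3 against 7.58 CPM (2.58, 2.47 to 2.69). Tnfrsf13c, the BAFF receptor of the alternative arm, stood at 31.6 against 8.94 CPM (1.82, 1.72 to 1.93). The lymphotoxin beta receptor gene Ltbr, which signals through the same arm, had 322 against 151 counts (1.11, 0.83 to 1.40). Tlr4, the endotoxin receptor, had 176 against 67 counts (1.41, 1.00 to 1.84). Tnfrsf11a (RANK) had only 76 against 36 counts (1.09, 0.51 to 1.71). Among the ligands, Tnf had 151 against 55 counts (1.47, 1.02 to 1.95) and Lta, Il1a and Il1b had ratios of 1.30, 2.19 and 1.87 on combined counts of 182, 167 and 107. Tnfrsf4 (OX40) was lower at 59 against 166 counts (-1.46, -1.93 to -1.03), and Tnfrsf18 (GITR) was at -0.54. Among these calls, only those of the receptor genes Tnfrsf1b and Tnfrsf13c rested on a combined count of at least 500.

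Known NF-kappaB target genes other than the 10 held 11 called higher and none called lower. Of 34 listed genes 23 had at least 100 counts, and 12 of the 23 were called neither way, with a median of 0.70; over all genes 11.2% were higher and 5.36% lower. The called genes with the most counts were Il2ra, the interleukin 2 receptor alpha chain (723 against 297.3 CPM, log2 ratio 1.28), the adhesion receptor gene Vcam1 (95.8 against 37.0 CPM, 1.37) and the chemokine receptor gene Ccr7 (36.8 against 5.89 CPM, 2.64). Cd83, an activation marker, was at 2.14, Bcl2a1b, a survival gene with near-identical copies and so an uncertain value, at 1.97, and Icam1, an integrin ligand, at 1.55. Csf1 and Plau had log2 ratios of 1.86 and 1.48 on combined counts of 116 and 132. Ccl5, Ier3 and Mmp9 followed at 1.19, 1.18 and 1.01. The lowest ratios were those of the antigen-processing genes Psmb9 (-0.92) and Tap1 (-0.44). Many genes of this list and the last are also expressed in macrophages, all 12 of whose markers were higher with a median of 1.70, and the part of these cells was not tested. Both lists were chosen with earlier results of these data known, so their shares are described and not tested.

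**Figure D4:**
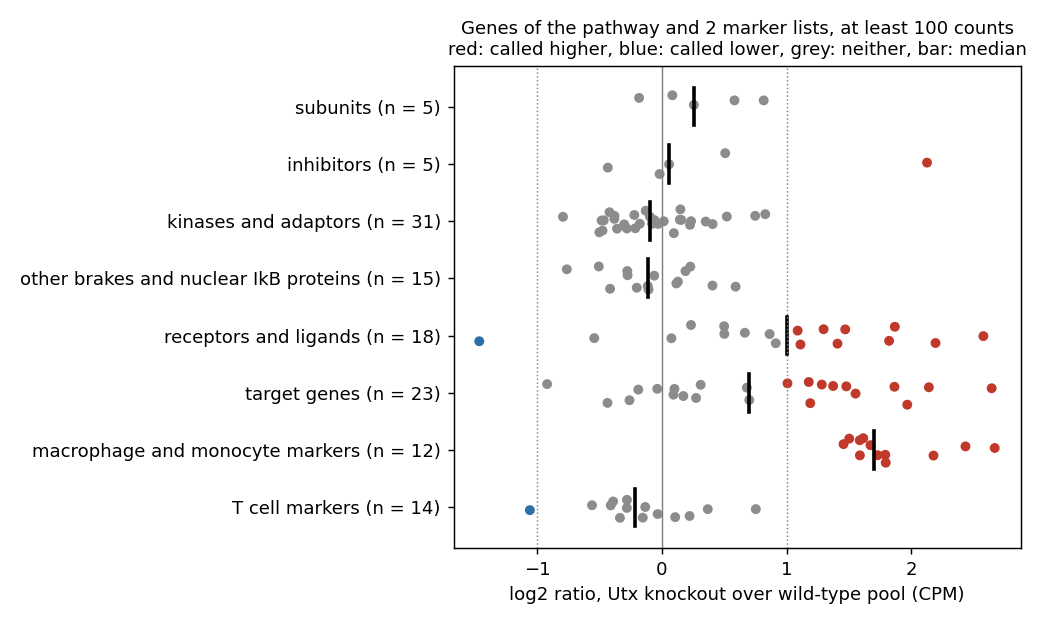
Log2 ratios of knockout over wild-type CPM for the genes with at least 100 counts in 6 lists of the pathway and in the macrophage and T cell marker lists (1 point per gene, bar at the median, dotted lines at 2-fold). Points called higher are red and lower blue; kinases and adaptors centre near -0.10, receptors and ligands near 1.00 and macrophage markers near 1.70.

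Markers of other cells did not all move in the same direction. NK markers had a median log2 ratio of 1.88 with 5 of 7 higher, but summed to 234.6 against 246.7 CPM, most of it from Gzma at -0.29. Neutrophil markers had a median of 0.48 with 2 of 8 higher, and erythroid markers one of 0.93 with 3 of 8 higher. B cell markers summed to only 8.79 against 11.3 CPM with a median of -0.05 and 1 of 5 lower (Pax5, -2.04). Dendritic cell markers had a median of -0.08 with 1 of 7 higher (Siglech, 1.09). Stromal and endothelial markers had a median of 0.28. Of these 7, 2 were higher (Cxcl12, 2.92, and Lepr, 1.42) and 1 was lower (Pdgfrb, -1.48). T cell markers had a median of -0.22, with 1 of 14 lower (Thy1, -1.06). Beside these counts, 11.2% of all genes with at least 100 counts were called higher and 5.36% lower. No marker of these lists was at 0 in either pool.

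Bcl3 and Relb are near neighbours on chromosome 7, with 179.0 kb between them. GENCODE M21 places 10 protein-coding genes in the gap, of which 9 were listed and 6 had at least 100 counts. Of these 6, 3 were higher and none was lower, beside 11.2% and 5.36% of all genes. Apoc1 and Apoe, apolipoprotein genes that macrophages express, had log2 ratios of 1.97 and 1.17, and Pvrl2, an adhesion gene listed elsewhere as Nectin2, was at 1.46 on 85 against 31 counts. Apoc2 was at 0.96 on 112 against 58 counts. Clptm1, next to Relb, and Tomm40, between Apoe and Pvrl2, had 18737 and 17980 combined counts and ratios of -0.22 and -0.20. On the outer side of Relb, Clasrp was at -0.01 and Zfp296 at 0.90, and the 2 nearest genes beyond Bcl3, Gm19345 and Ceacam16, had 20 and 31 combined counts. Genes with positive and with negative ratios thus lay side by side along the region. The antisense genes within Bcl3 had 8 and 3 combined counts. As the strand setting of the counting is not known, their part in its reads was not tested.

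**Figure D5:**
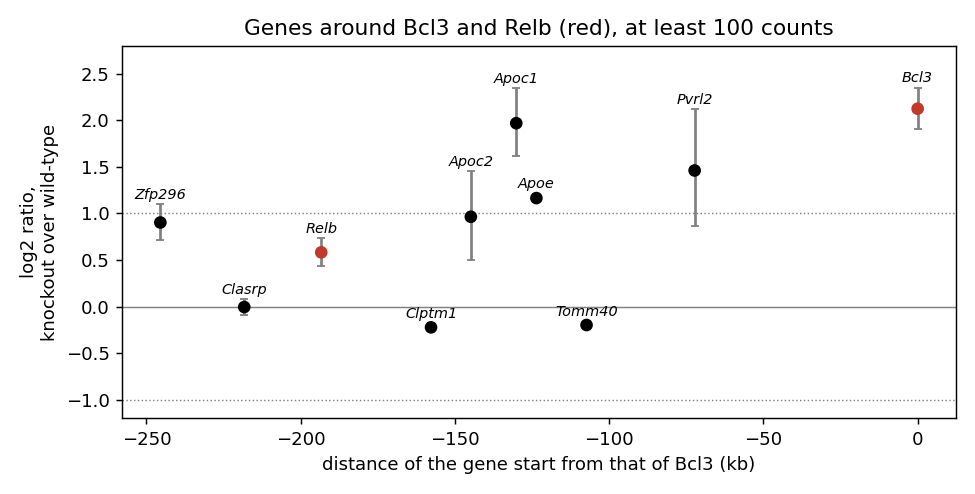
Log2 ratio of knockout over wild-type CPM, with 95% counting intervals, against the distance of each gene's start from that of Bcl3 in kb, for the genes with at least 100 counts around Bcl3 and Relb (red). Apoc1, Apoe, Pvrl2 and Bcl3 lie above the dotted 2-fold line, while Clptm1, next to Relb, and Tomm40, between Apoe and Pvrl2, lie at -0.22 and -0.20.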

How the data were processed

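The labels describe 11 samples of poly(A)-selected RNA from Notch1-IC mouse leukaemias, sequenced as strand-marked single reads of 50 bases. Per the submitters' processing notes, which name no versions, CASAVA and TopHat were run and the genome was mm9. Not given in the sources used here are the counting tool, the annotation, the strand setting and which samples were pooled. The deposited table holds whole read counts pooled by genotype; the first value column was read as the knockout pool, from the order of genotypes in the table's title. Its log2 fold changes, z score and p-values with q-values come from the DEGseq test of the authors, per the file headers and the series' design text; the z score was not used. Columns of per-sample values numbered 0, so no test across samples was possible.

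CPM used the total of the gene rows. Log2 ratios used a pseudocount of 0.5 counts. The upper limit for a count of 0 is 3 counts, or 0.0282 CPM in the knockout and 0.0278 in the wild-type pool. Reads are not independent molecules, so intervals cover counting error only. Exon lengths are those of protein-coding transcripts of the GENCODE M21 basic set (GRCm38), matched by identifier, by which 98.4% of genes with 100 counts were found; coordinates are from GRCm38, not mm9. The members, gene lists and rules were chosen with earlier results of these data known. Named genes are all members, the called genes and the 2 highest and 2 lowest of each pathway list, Kdm6a, and the neighbours of Bcl3 and Relb; Chuk, Ikbkb, Ikbkg, Irak1, Nfkbiz, the markers, sex-linked and overlapping genes were named beside these. Simulated Poisson counts for the 13833 genes of this comparison were used only to check that the call rule runs as written. Among genes well above the count minimum, all 100 changed by a log2 of 1.5 and all 100 changed by a log2 of -2 were recovered. In the same run 0 unchanged genes were called and 95.3% of intervals held the true ratio. Both changes lie past the 2-fold minimum and only counting error was simulated, so this outcome was nearly fixed beforehand. The simulation holds no spread between animals and does not measure the error of the real pools. TMM and upper quartile factors came from edgeR 4.0.16 in R 4.3.3; other steps used Python 3.11.15, SciPy 1.17.1 and pandas 2.3.3.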

Additional observations from a re-analysis of the deposited data

How the results depend on the processing

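No paired analysis was possible because the values are pooled by genotype and carry no replicate numbers; leaving out samples could not be run either. With TMM, median of ratios, upper quartile scaling or totals without mitochondrial and erythroid genes, and with a pseudocount of 5, the counts of called genes in all lists kept within 1.5 times, and the median of the 10 genes ran from 0.17 to 0.26. The ratio of Nfkbie turned sign, between -0.02 and 0.07; the other 9 kept theirs, with Bcl3 between 2.10 and 2.21 and Rela between -0.18 and -0.10. Of 50 values of single genes under these settings, 13 left the counting interval.

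The fold minimum set most counts. At 1.5-fold, 2 of the 10 genes were higher, and 3 of 31 kinases and adaptors and 2 of 15 other brakes were called. Over all genes, 18.9% were higher and 14.7% lower at that setting. With the authors' q and no fold minimum, 5 of the 10 were higher and 2 lower. That setting called 27 of 31 kinases and adaptors, 15 of 15 other brakes, 16 of 18 receptors and ligands and 21 of 23 target genes. Over all genes with at least 100 counts it called 82.7%, so most genes pass it. With at least 500 counts, 2 receptors and ligands and 8 target genes were called, all of them higher. The other receptors and ligands called in the main setting had fewer than 500 counts. The share of all genes called at that minimum is not given here.

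Shares of subunits depend on exon length. From raw counts, the knockout and wild-type shares were 67.0% and 63.3% for Nfkb1, 5.45% and 3.50% for Nfkb2, 1.27% and 1.36% for Rel, 22.6% and 29.0% for Rela, and 3.70% and 2.79% for Relb. With the exons of all transcripts, chosen after seeing the lengths, they were 36.5% and 32.1%, 7.81% and 4.67%, 1.12% and 1.11%, 48.4% and 57.7%, and 6.25% and 4.39%. The IkB genes over the subunits stood at 0.72 and 1.02 from raw counts and at 2.67 and 3.59 with all exons. The knockout pool was higher for Nfkb1, Nfkb2 and Relb and lower for Rela and the IkB ratio under all 3 lengths. The same lengths divide both pools and leave each gene's own ratio unchanged, so this is no separate check of direction. Rel was lower in the knockout pool from coding exons and raw counts and higher with all exons.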
